A study of Rattus norvegicus with 4 samples.

Results

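The genes described here belong to the machinery by which a macrophage takes up particles: the clathrin coat and its AP-2 adaptor, dynamin, caveolin, endosomal Rab GTPases, the GTPases Cdc42, Rac1 and Rhoa, regulators and effectors of the cytoskeleton, the Arp2/3 complex, actin-binding proteins and the retromer. Of 40 listed genes, 35 had at least 1 non-control probe whose RefSeq accession maps to the gene's symbol, out of 16581 genes named in that way. The other 5, Ap2a1, Eea1, Was, Elmo1 and Dock2, had no probe matched and were not measured here. The rule that lists the 40 genes is one of function and uses no measured value, but they were chosen with earlier results of these data known.

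Expression was measured in NR8383, a macrophage line established from the lung lavage of a normal rat, in 1 group of 4 cultures. Per the labels, the cells had gone through 20 passages, grew partly attached and partly floating, and were exposed to 2 µg/mL of the iron oxide Fe2O3 in its NRCWE018 form, for 4 h. Cultures without the particle belong to the study's design and were not analysed here, so no value below is an effect of the particle. Replicates are the 4 exposed cultures, stated by the study to be biological, with 1 single-colour array each. All arrays were on 1 slide, and a culture's own effect cannot be separated from that of its place there.

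In clathrin-mediated endocytosis, AP-2 binds cargo and the membrane lipid PIP2, clathrin forms a lattice over the bud, and dynamin cuts the neck. Phagocytosis of larger particles instead pushes the membrane outward on a branched actin network, which Rac and Cdc42 start through WAVE and WASP proteins that switch on the Arp2/3 complex. The vesicle then passes through Rab5-marked early endosomes to Rab7-marked late endosomes, while Rab11 and the retromer return membrane and receptors.

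Levels are given as the log2 processed signal of a probe minus the log2 of the array's 75th percentile, with the SD over n = 4 arrays. The 75th percentile was 1072, 984.3, 1082 and 756.5 signal units on replicates 1 to 4, the share of probes well above background was 37.8 to 41.2%, and no spot was saturated. Levels of different probes depend on the probe and are not ranked against each other. Precision is set by how few arrays there are. Of 14 macrophage markers, 10 were well above background on each of the 4 arrays, such as Cd68 at 4.96 ± 0.20 and Spi1 at 0.88 ± 0.14. Among all named genes, 50.5% reached that mark on all 4. Adgre1, Marco and Cd163 did not reach that mark on any array, and Mertk reached it on 1. Among 8 markers of lung epithelium Foxj1 alone reached it on all arrays, and their summed level lay between 0.170 and 0.215 times the 75th percentile. Of 8 fibroblast and endothelium markers, Dcn, Pecam1, Cdh5 and Vwf reached it on all arrays, Vwf at 2.21 ± 0.28, and the summed level of the 8 was 4.92 to 6.96. Of 6 measured genes listed as lymphocyte markers Cd3d and Cd4 did, with a sum over the 6 of 0.435 to 0.512. Cd3d was at -3.70 ± 0.26 and Cd4 at -1.42 ± 0.19, and whether Cd4 came from lymphocytes was not tested. Other macrophage markers above background were Fcer1g at 5.50 ± 0.22, Ptprc at 0.67 ± 0.16, Itgam at -0.39 ± 0.30 and Csf1r at -0.40 ± 0.11. Mrc1 was at -1.17 ± 0.49 and Cd14 at -1.41 ± 0.28. The sum of the 14 macrophage markers was 279 to 346, with Lyz2 at 7.17 ± 0.14 and Tyrobp at 6.46 ± 0.14 on the log2 scale. These sums add signals of different probes over unlike numbers of genes, and give no share of cell types. The part of other cell types in the levels below was not tested.

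Most of the uptake machinery was above background in every exposed culture. Of the 35 measured genes, 32 (91.4%) were well above background on all 4 arrays, against 50.5% of all named genes, and 3 were above it on none: Cav1, Rab5a and Wasf2. No gene was above background on only some arrays. Above background stands throughout for the scanner software's mark of a signal well above background, and a probe without that mark may still hold a signal. In RNA from whole cultures, fewer cells expressing a gene and less RNA per cell cannot be told apart. All measured genes of the clathrin coat, AP-2, Arp2/3 complex, actin-binding proteins and retromer were in the 32. Since none was above background on only some arrays, leaving out an array could not change the count of 32, and gives no check of it.

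**Figure D1:**
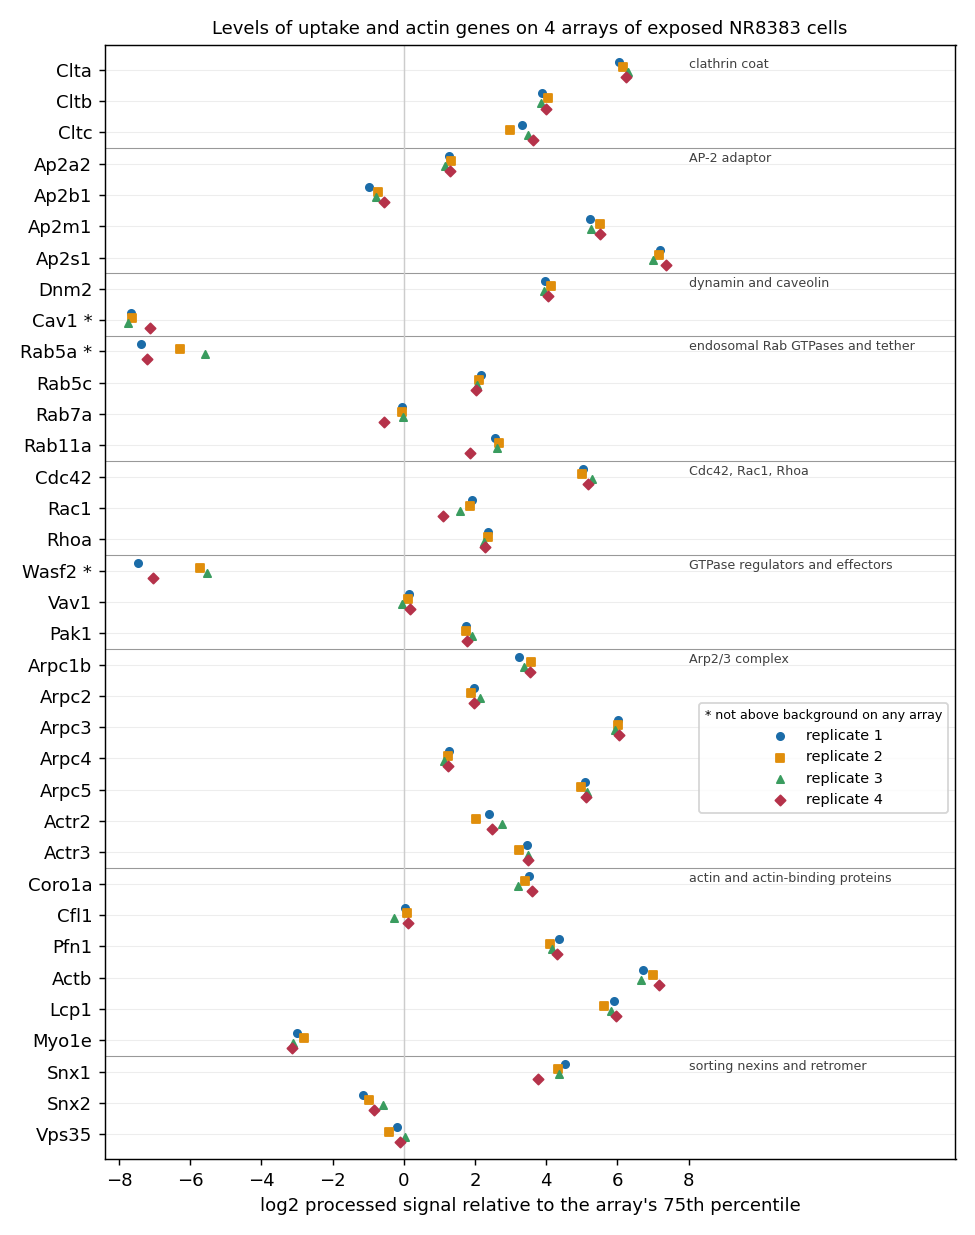
Each row is 1 of the 35 measured genes in role order, and the 4 symbols are its log2 processed signal over the 75th percentile of the array on replicates 1 to 4; an asterisk marks a gene above background on no array. The 4 symbols of most genes nearly coincide, Cav1, Rab5a and Wasf2 lie at the far left, and the replicate 4 symbols of Rab7a, Rab11a, Rac1 and Snx1 stand to the left of the others.

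Caveolin 1, Cav1, is the main coat protein of caveolae, small flask-shaped pits of the plasma membrane. Its probe, spotted 10 times on each array, had mean processed signals of 5.32, 5.02, 5.09 and 5.40 units on replicates 1 to 4. Against the 75th percentile these are -7.66, -7.64, -7.74 and -7.14, values that have no order since the probe was not well above background. The probe was not called positive and significant on any of them. Its copies Cav2 and Cav3 and the caveola coat gene Cavin1 were also above background on no array, whereas Cavin2 and the flotillin genes Flot1 and Flot2 were above it on all 4. Such a probe gives no evidence that the RNA was missing.

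Rab5a and Wasf2 were not well above background on any array, while Rab5b and Rab5c were on all 4. Rab5a encodes a GTPase of early endosome fusion, and its 1 probe had signals of 6.48, 12.6, 22.4 and 5.10 units on replicates 1 to 4. The probe passed the laxer mark of a positive and significant signal on 3 arrays. Rab5c, another early endosome form, was at 2.17, 2.11, 2.06 and 2.03 on the log2 scale on replicates 1 to 4, with an SD of 0.06 and no array apart. Rab5b was also above background on all 4. Wasf2 encodes WAVE2, which links Rac to the Arp2/3 complex. Its 1 probe had signals of 6.12, 18.4, 23.2 and 5.74 units, and was positive and significant on 2 arrays. These levels are too close to background for the arrays to be ordered.

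Promoters, chosen after the values were seen, are shown for Rab5a and Wasf2, for the copy Rab5c, for Cltc and Actr2, which were both low on replicate 2 (below), and for Vav1, a gene of blood cells. Each sequence is a window around the gene's start from RefSeq on GRCr8, mostly before it, 5′ to 3′. Capitals mark every match, on either strand, to the GC box GGGCGG, the CCAAT box CCAAT, the TATA box TATAAA and GAGGAAG, a sequence bound by the myeloid factor PU.1; no 2 different motifs overlapped in these windows.
Rab5a, chr9:6720877-6721176, plus strand: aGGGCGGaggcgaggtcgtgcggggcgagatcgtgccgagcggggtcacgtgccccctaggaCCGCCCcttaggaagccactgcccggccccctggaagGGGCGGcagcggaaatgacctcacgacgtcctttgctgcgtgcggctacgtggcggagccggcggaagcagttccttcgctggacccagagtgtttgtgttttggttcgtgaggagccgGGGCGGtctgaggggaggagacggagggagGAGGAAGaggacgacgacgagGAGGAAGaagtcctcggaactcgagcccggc
Rab5c, chr10:86166400-86166699, minus strand: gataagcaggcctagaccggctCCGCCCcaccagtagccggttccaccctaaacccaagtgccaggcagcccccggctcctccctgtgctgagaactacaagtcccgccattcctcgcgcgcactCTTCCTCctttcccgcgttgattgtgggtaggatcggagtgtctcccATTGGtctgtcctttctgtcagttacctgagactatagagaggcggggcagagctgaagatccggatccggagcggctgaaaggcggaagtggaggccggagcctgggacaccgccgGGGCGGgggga
Wasf2, chr5:150620483-150620782, plus strand: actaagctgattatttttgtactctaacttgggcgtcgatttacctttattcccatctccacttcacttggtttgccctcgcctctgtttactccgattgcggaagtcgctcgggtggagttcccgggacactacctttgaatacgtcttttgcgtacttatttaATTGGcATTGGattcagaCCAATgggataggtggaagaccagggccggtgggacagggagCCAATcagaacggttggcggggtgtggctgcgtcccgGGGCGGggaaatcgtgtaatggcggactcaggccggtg
Cltc, chr10:72070642-72070941, minus strand: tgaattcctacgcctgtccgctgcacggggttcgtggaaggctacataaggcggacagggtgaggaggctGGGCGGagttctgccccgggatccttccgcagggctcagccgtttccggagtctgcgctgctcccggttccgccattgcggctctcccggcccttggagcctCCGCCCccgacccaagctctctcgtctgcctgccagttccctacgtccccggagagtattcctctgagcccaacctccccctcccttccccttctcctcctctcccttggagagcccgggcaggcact
Actr2, chr14:98535043-98535342, minus strand: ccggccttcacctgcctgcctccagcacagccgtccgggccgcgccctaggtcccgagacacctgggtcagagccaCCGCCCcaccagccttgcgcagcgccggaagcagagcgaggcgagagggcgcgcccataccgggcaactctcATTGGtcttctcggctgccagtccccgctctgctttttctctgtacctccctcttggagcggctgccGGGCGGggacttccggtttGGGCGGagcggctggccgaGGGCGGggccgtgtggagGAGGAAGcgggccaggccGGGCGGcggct
Vav1, chr9:2248705-2249004, plus strand: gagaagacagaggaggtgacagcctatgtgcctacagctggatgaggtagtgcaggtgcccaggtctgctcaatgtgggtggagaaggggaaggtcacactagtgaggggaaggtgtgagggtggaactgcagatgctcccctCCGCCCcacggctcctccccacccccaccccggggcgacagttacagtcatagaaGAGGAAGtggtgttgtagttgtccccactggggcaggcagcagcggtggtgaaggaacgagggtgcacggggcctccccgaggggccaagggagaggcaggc
The Rab5a window holds 4 GC boxes and 32 CpG dinucleotides, and the Wasf2 window 1 GC box and 4 CCAAT boxes. Vav1 has 1 GC box, 1 GAGGAAG and 8 CpG dinucleotides. A promoter was found for 37 of the 40 genes, and not for Actb, Rac1 and Lcp1. Of the 37, 30 (81.1%) held a GC box, against 62.2% of 7004 promoters of named genes above background on all arrays and 34.9% of all 27457. GAGGAAG was in 12 of 37 (32.4%), against 13.6% and 12.4% in those sets. A TATA box was in 2 (5.41%), Cav1 and Snx1, against 7.17% and 14.3%, and a CCAAT box in 15 (40.5%), against 39.2% and 37.7%. The median GC content was 63.0%, against 60.3% and 52.3%. Of 2 further motifs searched, an NRF2-type sequence, TGACNNNGC or TGAGNNNGC, was in 11 of 37 (29.7%), against 31.7% and 27.1%. A CArG box was in 1 (2.70%), Myo1e, against 1.06% and 1.64%. All 6 motifs were picked after the values were seen, and their matches were counted on both strands. Such a match describes the letters and does not show a bound site.

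The coat genes varied little between the cultures, apart from the heavy chain. Clathrin is built of heavy chains (Cltc) and light chains (Clta and Cltb). Clta was at 6.03, 6.16, 6.30 and 6.24 on replicates 1 to 4, and Cltb at 3.88, 4.06, 3.85 and 3.98. No array stood apart in either. Cltc was at 3.33, 2.98, 3.48 and 3.62, with replicate 2 lowest, and its SD of 0.28 was the largest of the coat and AP-2 genes. The excess of that spread over genes of like level did not pass the test described below (limma adjusted p = 0.901).

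AP-2 is a complex of alpha, beta, mu and sigma subunits, of which mu binds tyrosine-based sorting signals and sigma, with alpha, dileucine-based ones. The alpha subunit gene Ap2a2 was at 1.28, 1.31, 1.15 and 1.30, and the beta subunit gene Ap2b1 at -0.98, -0.73, -0.77 and -0.55. The arrays lay close together for Ap2a2, and replicate 1 was lowest for Ap2b1. Ap2m1, for mu, averaged 5.38 ± 0.16 and Ap2s1, for sigma, 7.18 ± 0.15. The GTPase that cuts the vesicle neck, Dnm2, was at 3.96, 4.14, 3.95 and 4.07, with an SD of 0.09. Its copy Dnm1, known from neurons, was above background on no array and Dnm3 on 3. Of 17 other measured genes of clathrin coat assembly, 15 were above background on all arrays; Epn2 and Snap91 were not.

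Rab11a, Rac1, Snx1 and Rab7a were low on replicate 4, and all 4 were spotted in one area of that array. Rab11a, a GTPase of recycling endosomes, was at 2.57, 2.68, 2.62 and 1.86 on replicates 1 to 4, and the late endosome GTPase Rab7a at -0.05, -0.05, -0.03 and -0.55. Rac1, the GTPase behind lamellipodia and phagocytic cups, was at 1.92, 1.85, 1.58 and 1.11. Snx1, a membrane-bending sorting nexin of the retromer pathway, was at 4.54, 4.33, 4.35 and 3.78. In each of these genes replicate 4 was lowest, and lay below the mean of the other arrays by 0.76 for Rab11a, 0.67 for Rac1, 0.63 for Snx1 and 0.50 for Rab7a. Of all 8376 named genes above background, 323 (3.86%) were more than 0.5 lower on replicate 4 than on the mean of the others, a limit chosen after the values were seen.

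The array has 384 rows and 164 columns of spots. In blocks of 8 rows and 4 columns, 80 had a median difference between replicate 4 and the other arrays below -0.3, the lowest at -1.23. All 80 lay between rows 153 and 256 and columns 69 and 104, a frame that also holds blocks that were not low. The spot of Rab11a was at row 206 and column 97, that of Rac1 at row 208 and column 70, that of Snx1 at row 219 and column 72, and that of Rab7a at row 233 and column 76. The spots around each of the 4, within 6 rows and 4 columns, had a median difference between replicate 4 and the other arrays of -0.65 around Rab11a, -0.50 around Rac1, -0.49 around Snx1 and -0.47 around Rab7a. For the other 28 genes above background no such neighbourhood was below -0.3. Over all named genes, 284 (3.39%) had a neighbourhood below -0.3 on replicate 4, and these held 221 (68.4%) of the 323 low ones; no gene had one on replicates 1, 2 or 3. None of the 4 member spots was marked as an outlier by the scanner software.

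**Figure D2:**
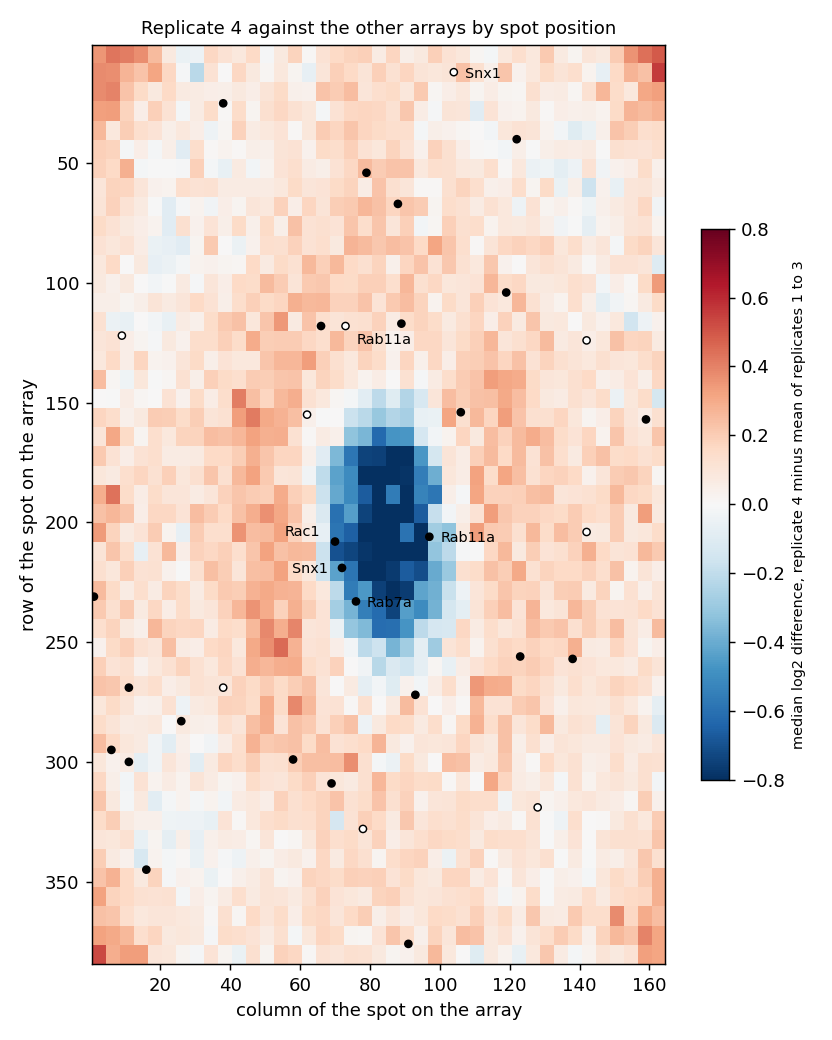
The array surface by spot row and column, coloured by the median log2 difference between replicate 4 and the mean of replicates 1 to 3 in blocks of 8 rows and 4 columns; dots are single spots of uptake and actin genes, filled for the probe used and open for other probes of the same gene. A dim area lies near the centre, with the spots of Rab11a, Rac1, Snx1 and Rab7a in it and the other probes of Rab11a and Snx1 outside it.

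Rab11a and Snx1 each had another probe, both outside that area, and neither was low on replicate 4. The other Rab11a probe was at -2.47, -2.25, -1.70 and -2.02, with replicate 1 lowest. The other Snx1 probe was at 1.85, 1.86, 1.73 and 1.79, with an SD of 0.06. Setting each spot relative to its neighbours on the same array, a step added after the values were seen, brought replicate 4 to -0.03 relative to the other arrays for Rab11a, -0.09 for Rac1, -0.05 for Snx1 and 0.06 for Rab7a. The SD over arrays was then 0.07 for Rab11a, against 0.38 as processed. For Rac1 it was 0.12 against 0.37, for Snx1 0.10 against 0.33 and for Rab7a 0.04 against 0.25.

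**Figure D3:**
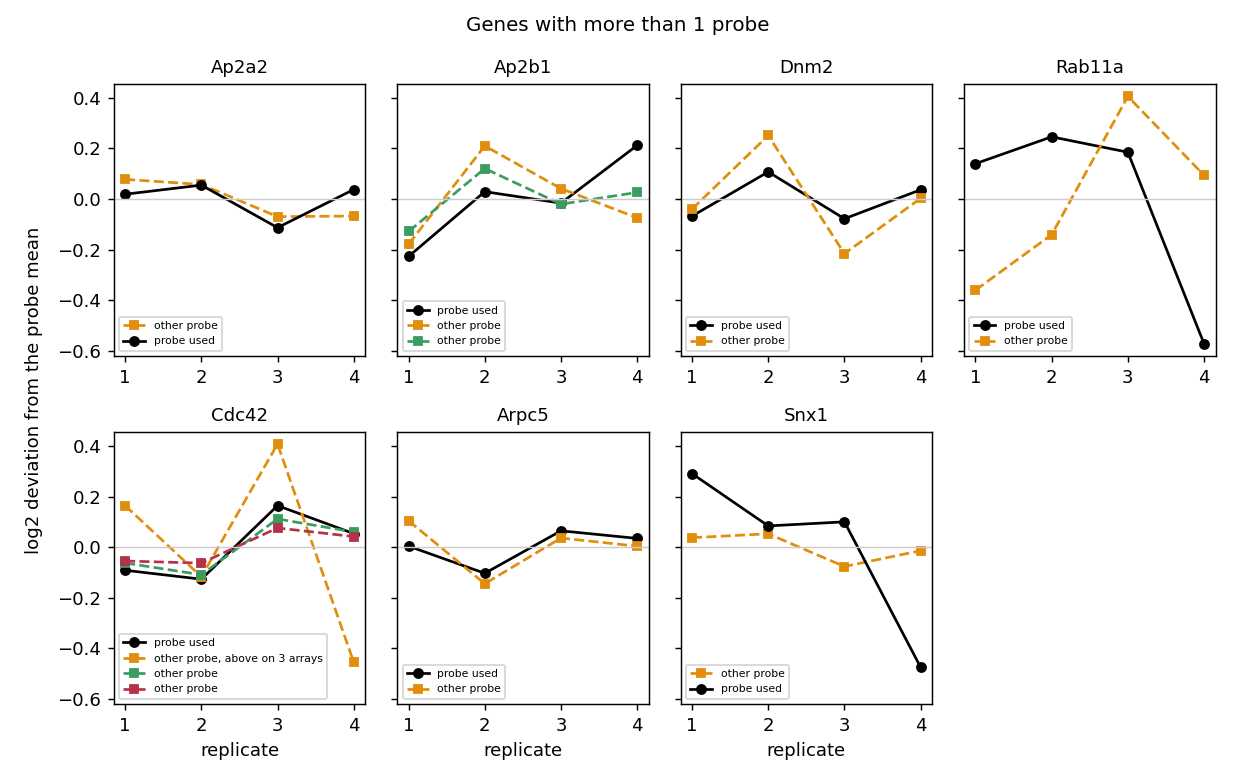
Each panel is 1 of the 7 genes with more than 1 probe, with the log2 deviation of each probe from its own mean on replicates 1 to 4; the black line is the probe used and dashed lines are the others. For Rab11a and Snx1 only the probe used dips on replicate 4, and the probe of Cdc42 that dips there was above background on 3 arrays.

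The other small GTPases were steady. Cdc42, which drives filopodia and phagocytic cups, was at 5.03, 5.00, 5.29 and 5.18, and 2 further probes of it also had replicates 3 and 4 above replicates 1 and 2. The remaining probe was above background on 3 arrays. Rhoa, which promotes stress fibres and contraction, averaged 2.32 ± 0.06. Among copies, the blood cell form Rac2 and Rhob and Rhoc were above background on all arrays.

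Of the regulators and effectors, Vav1 and Pak1 were above background. Vav1, an exchange factor for Rac in blood cells, was at 0.14, 0.13, -0.06 and 0.18, with replicate 3 lowest. Pak1, a kinase bound by active Rac and Cdc42, averaged 1.80 ± 0.09. For genes of this group without a value, Wasl, Elmo2 and Dock1, which are copies of Was, Elmo1 and Dock2, were above background on all 4 arrays. Wasf1 and Elmo3 were above it on none.

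All 7 measured subunits of the Arp2/3 complex, which nucleates branched actin filaments, were above background. Arpc1b was at 3.25, 3.57, 3.38 and 3.54, and Arpc2, one of the core pair of scaffold subunits, at 1.97, 1.90, 2.15 and 1.96. Arpc4, the other scaffold subunit, was at 1.26, 1.26, 1.12 and 1.25, with replicate 3 lowest and an SD of 0.07. Of the actin-related protein genes, Actr2 was at 2.38, 2.04, 2.75 and 2.49, and Actr3 at 3.47, 3.25, 3.50 and 3.50. Replicate 2 was lowest in both. Arpc3 averaged 6.003 ± 0.05, the smallest SD of all 32 genes, and Arpc5 5.09 ± 0.07. The probe used for each of these had 10 spots on each array. The 7 subunits did not move as one: on replicate 2, Actr2, Actr3, Arpc2 and Arpc5 were lowest and Arpc1b highest. The copies Arpc1a, Arpc5l and Actr3b were above background on all arrays.

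Genes of actin and its binding proteins were above background in all 6 cases. Actb, for beta-actin, was at 6.71, 6.99, 6.67 and 7.18, with replicate 4 highest. Each array held 10 spots of its probe, of which 9 or 10 were kept, and these lay between 7.05 and 7.30 on replicate 4 and between 6.57 and 6.75 on replicate 3. The excess of the spread of Actb between arrays did not pass the test (limma adjusted p = 0.978). Coro1a, a coronin of blood cells, was at 3.52, 3.39, 3.21 and 3.60, and Cfl1, which severs filaments, at 0.04, 0.08, -0.28 and 0.12. Replicate 3 was lowest in Coro1a, Cfl1 and Actb. Pfn1, for the actin monomer-binding profilin, averaged 4.23 ± 0.11, Lcp1, for the leukocyte filament bundler L-plastin, 5.83 ± 0.15, and the membrane-linked motor Myo1e -3.02 ± 0.16.

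Among copies, Actg1 and Actc1 were above background on all arrays, Acta2 on 3 and Acta1 on none; Cfl2 and Dstn were on all, Pfn2 on none, Pls3 on all and Pls1 on none. Probe sequences were not used here, and whether each probe tells near-identical copies such as actins apart was not tested.

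In the retromer, which returns receptors from endosomes, Vps35 is a core subunit, and averaged -0.17 ± 0.19. Snx2, a partner of Snx1, was at -1.14, -0.97, -0.59 and -0.84, with replicate 3 highest. Of 9 other measured genes of the retromer and sorting, 8 reached the mark on each array, with the core subunit genes Vps26a and Vps29 in that number, and Snx18 reached it on 2.

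Across all 6 groups of further uptake and actin genes, 81 of 89 measured genes (91.0%) reached the mark on each array, against 50.5% of all named genes. Of the rest, 2 reached it on some (Snx18 and Crk) and 6 did not on any. Of 36 measured copies that are not themselves among them, 25 (69.4%) reached it on each array and 9 on none; Dnm3 and Acta2 reached it on 3. The 9 were Dnm1, Cav2, Cav3, Wasf1, Elmo3, Pak3, Pfn2, Acta1 and Pls1. The 6 pathway genes were Evl, Cttn, Cavin1, Epn2, Snap91 and Nckap1.

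**Figure D4:**
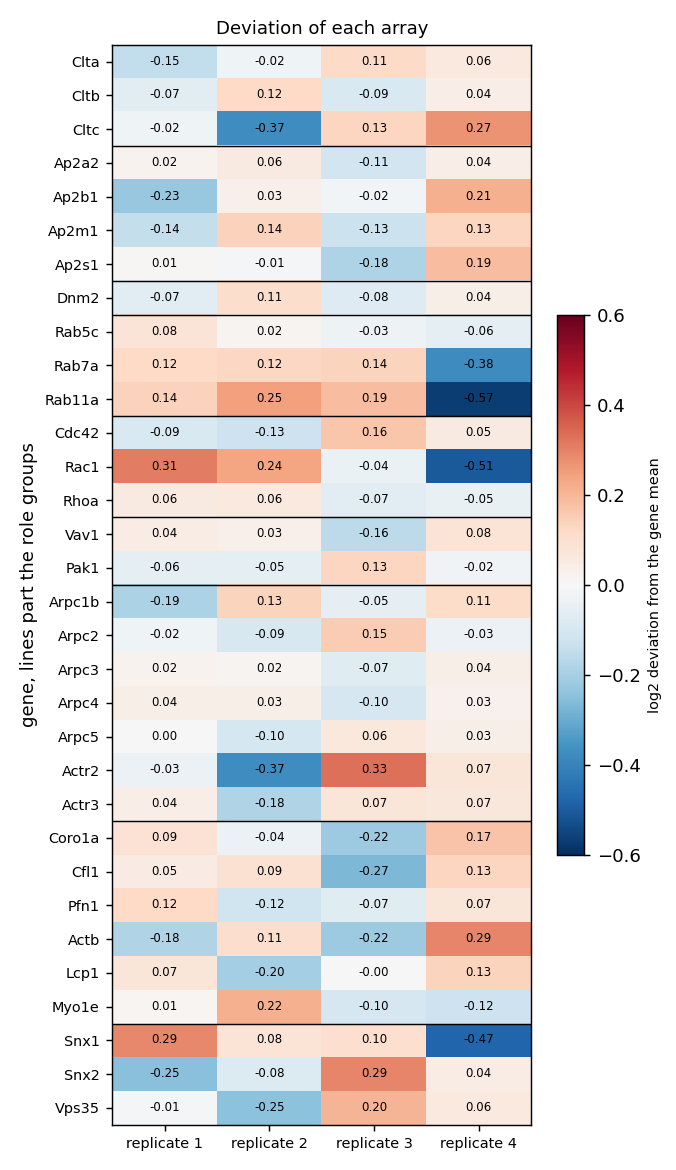
The log2 deviation of each of the 32 genes above background from its own mean on replicates 1 to 4, with lines between role groups. The darkest blue cells are Rab11a, Rac1, Snx1 and Rab7a on replicate 4 and Cltc and Actr2 on replicate 2, where replicate 4 of the first 4 genes is 0.50 or more below the other arrays.

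No uptake or actin gene passed a test for excess spread between the cultures as processed. With normexp background correction Rab11a, Snx1 and Rac1 did, at limma adjusted p of 0.0228, 0.0231 and 0.0454. In that setting 157 of all 8376 named genes tested passed. The test set the variance of a gene over the 4 arrays against that usual for genes of like level, with limma, and was adjusted over all 8376 named genes above background. None of the 32 genes passed, against 16 (0.191%) of all genes; 3 had an unadjusted p under 0.05, against 482 (5.75%). The 3 were Rab11a, Snx1 and Rac1, all in the dim area of replicate 4, with limma adjusted p of 0.542, 0.648 and 0.685. With each spot set relative to its neighbours, 1 of the 32 had an unadjusted p under 0.05 in limma, against 425 of all 8376 genes. That gene was Actr2, with a limma adjusted p of 0.959. The median SD of the 32 genes was 0.15, against 0.18 over all 8376. Of the 32, 21 lay under that median, against 50% of all genes by definition. The probes of Arpc1b, Arpc3, Arpc5, Actb and Lcp1 had 10 spots on each array, and those of Actr3 and Pfn1 had 2. The part of averaging over repeat spots in these SDs was not tested. The lowest SD was 0.05 and the highest 0.38. The median level was 2.89 for the 32 genes and -0.42 for all, and the prior SD is smaller at higher levels. Set against the spread usual at their own level, 17 of 32 lay below it, against 56.4% of all genes. The prior SD falls with level in the plot of spread, where the genes lie on both sides of it.

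**Figure D5:**
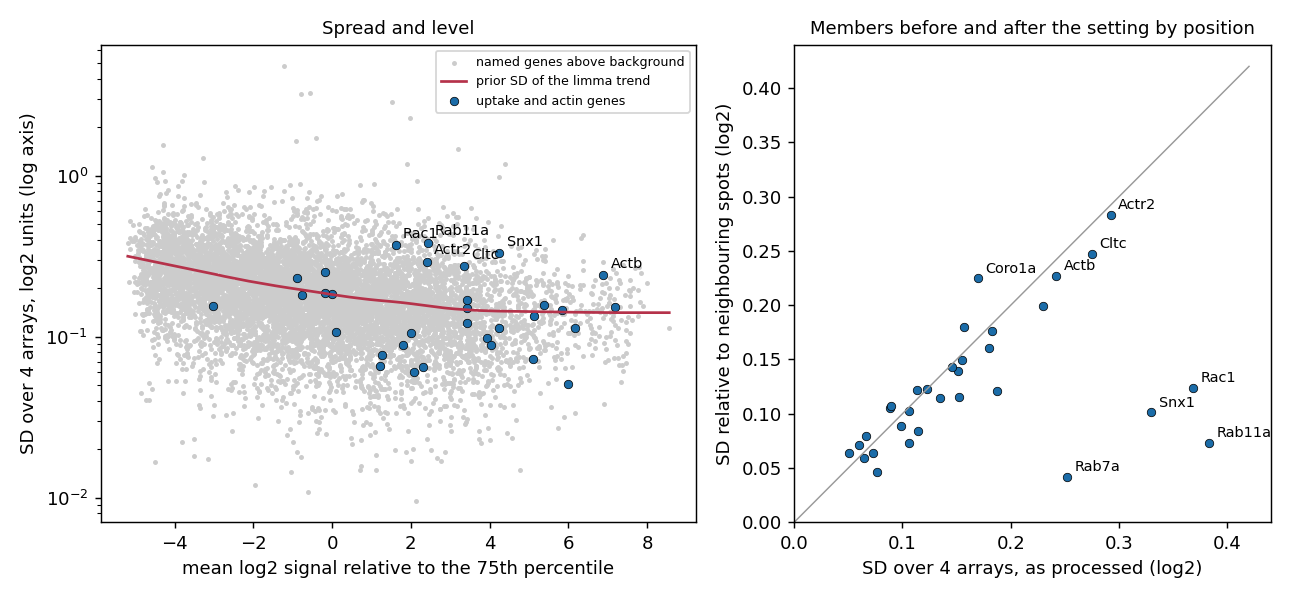
Left, SD over 4 arrays on a log axis against mean log2 level for 8376 named genes (grey) and 32 uptake and actin genes (blue), with the limma prior as a line; right, the SD of the 32 genes relative to neighbouring spots against the SD as processed, with the line of equality. Rab11a, Rac1, Snx1 and Rab7a drop far below that line, and Actr2 and Cltc stay near it.

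The set as a whole lay close to its mean on each array. The median deviation of the 32 genes was 0.0078, 0.023, -0.035 and 0.049 on replicates 1 to 4, beside medians over all genes of -0.018, 0.0053, -0.030 and 0.069. The mean deviation of the 32 genes was 0.0044 on replicate 4, where Rab11a, Rac1, Snx1 and Rab7a are low, against 0.056 over all genes, and 0.040 with each spot set relative to its neighbours. Replicate 4 was lowest for 6 of the 32 genes, against 15.4% of all genes, and highest for 9, against 36.3%. Replicate 3 was lowest for 11, against 34.4%, and replicate 2 for 9, against 20.4%. By Dixon's test 1 array stood apart for 4 of the 32, Rab7a, Rab11a, Arpc4 and Actr3, against 5.87%. The 3 Rab genes averaged 0.11, 0.13, 0.10 and -0.34 on replicates 1 to 4, where replicate 4 rests on Rab7a and Rab11a; relative to neighbouring spots the replicate 4 value was -0.0078. The 6 actin and actin-binding genes averaged 0.03, 0.01, -0.15 and 0.11, with replicate 3 lowest, and -0.14 on replicate 3 relative to neighbouring spots. The 4 AP-2 genes averaged -0.09, 0.05, -0.11 and 0.14.

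Outside the dim area, the widest ranges were in Actr2 and Cltc. Both were 0.50 lower on replicate 2 than on the mean of the other arrays, while the spots around them differed by 0.02 for Actr2 and -0.01 for Cltc. Of the 32 genes, 8 had a range over arrays above 0.5, against 33.7% of all genes. These were Rab11a, Rac1, Snx1 and Rab7a in the dim area, and Actr2, Cltc, Snx2 and Actb outside it. Relative to neighbouring spots 3 genes had such a range, Actr2, Cltc and Coro1a, the last of which is not among the 8. The 33.7% is for levels as processed, and the share of all genes relative to neighbouring spots is not given here. Actr2 and Cltc have 1 probe and 1 spot each.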

How the data were processed

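Cy3-labelled RNA from each culture was put on a one-colour rat array from Agilent, per the labels. The authors extracted the deposited intensity values with Agilent Feature Extraction, in version 11.0.1.1 according to the submitters' processing notes. The processed signal intensity was background-subtracted, with a spatial and a multiplicative detrend recorded within each array, per the file headers, and is not scaled between arrays. The other deposited columns used are flags per spot, per the file headers.

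Of 58717 non-control spots, those marked as outliers were left out unless all spots of a probe were marked. Log2 signals were set relative to the 75th percentile of the array, and repeat spots averaged. A probe counted as above background on an array where over 0.5 of its spots carried the well-above-background flag. Accessions of 21109 of 45598 probes matched a symbol in RefSeq's GRCr8 table, used for names only. For a gene with several probes, the one detected on the most arrays was used, and among equals the brightest. Excess spread was tested in limma 3.58.1 (R 4.3.3) with an upper-tail F test against a robust prior that follows level, with 9.16 prior degrees of freedom shared by all genes, and Benjamini-Hochberg adjustment at 0.05. On data simulated at these 8376 levels it called 62 of 100 genes with 5 times the SD, 92 of 100 with 10 times and 3 of 8176 others.

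A first run used prior degrees of freedom per gene and counted a spot share of 0.5 as above background. It called 0 of 8385 genes. The settings reported were taken up after that count was seen, to follow an earlier description of these data, and give 16 of 8376.

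Values on each array are given for the first 2 genes of each role, the widest of each role, those not well above background, those of lowest p and those with 1 array apart, and otherwise the mean and SD. Members and lists were chosen with earlier results of these data known. The dim area of replicate 4, the limits of -0.3 and 0.5, and the neighbourhood of 6 rows and 4 columns were found or chosen after the values were seen. Promoters and figures were made with Python 3.11.15. The count for 1 group of further pathway genes is not reported here.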

Additional observations from a re-analysis of the deposited data

Results flagged for a closer look

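Dixon's ratio put 1 array outside the other 3 in 7 of the 53 sets of 4 values tried. By chance about 1 set in 20 would do so if the sets were independent. Sets here overlap, since the mean of the Rab genes is built from Rab11a and Rab7a. So the 7 are no measure of an excess over chance. On replicate 4, Rab11a was at 1.86, Rab7a at -0.55 and the mean deviation of the 3 Rab genes at -0.34, all low, and the spots of Rab11a and Rab7a lie in the dim area. Cav1 was at -7.14 on replicate 4, but its probe was not well above background on any array, so its values have no order. Arpc4 was at 1.12 on replicate 3 and Actr3 at 3.25 on replicate 2, both low. Replicate 3 of Arpc4 differed from the mean of the other arrays by -0.13, and the spots around it by -0.14. Replicate 2 of Actr3 differed by -0.24, and the spots around its 2 spots by 0.02. For the GTPase regulators Vav1 and Pak1 the mean deviation was 0.031 on replicate 4, above 3 values that nearly coincided. Relative to neighbouring spots that deviation was -0.038.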

How the results depend on the processing

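Of the uptake and actin genes, 32 were above background under each detection mark, probe rule and omission of an array tried, with 78 to 86 of the other pathway genes and 23 to 28 of the copies. For the uptake and actin genes, the omission of an array could not change the count. The number with excess spread was 0 under each setting tried except normexp background correction, which starts from spot signals without spatial detrending and gave 3: Rab11a, Snx1 and Rac1, with limma adjusted p of 0.0228, 0.0231 and 0.0454. Under the other settings the limma adjusted p of Rab11a ranged from 0.0514 with all named genes tested to 0.998 without replicate 4. The number of the 32 genes at an unadjusted limma p under 0.05 was 3 with all arrays. It was 5 without replicate 1, 3 without replicate 2, 4 without replicate 3 and 1 without replicate 4. Over all named genes these omissions gave 446 of 8425, 396 of 8394, 505 of 8395 and 437 of 8644, against 482 of 8376 with all arrays. It ranged from 0 when the prior did not follow level (405 of all 8376) to 6 with all named genes tested (1292 of 16581). The count over all named genes, 16, was 157 with normexp, 25 with outlier spots kept, 370 with all named genes tested, 5 when the prior did not follow level, 10 without robust fitting and 7 to 22 with 1 array left out, 7 being without replicate 2; the cause was not tested. With prior degrees of freedom per gene it was 0 in limma, with 294 genes at an unadjusted p under 0.05, and with both settings of the first run also 0, with 291. So the 16 genes rest on the choice of shared prior degrees of freedom. Where no gene at all was called, the count of 0 uptake genes was fixed in advance, so it is no check of that choice. All levels shifted by a median of -1.24 with the percentile over detected probes, 2.43 with quantile normalization, 2.41 with cyclic loess and -0.18 with outlier spots kept. The mean over probes moved 6 levels by more than their SD, to 2.18 for Cdc42, 0.16 for Rab11a, 2.38 for Dnm2, 3.63 for Arpc5, 3.03 for Snx1 and -1.41 for Ap2b1, and normexp moved 14 of 35. The median SD of the 32 genes lay between 0.12 and 0.15. No paired analysis was possible because there is 1 group. Signals near background limit what can be said of Rab5a, Wasf2 and Cav1.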
